A study of Homo sapiens with 16 samples.

Results

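Chromatin accessibility around 10 inflammatory cytokine and NF-kB genes was examined by ATAC-seq, in which a transposase cuts open chromatin and the cuts are counted over peaks. The genes were the cytokines TNF, IL1A, IL1B, IL6 and LIF, the chemokines CXCL1, CXCL8 and CCL20, and the feedback inhibitors NFKBIA and TNFAIP3. They were followed through the 35 peaks, of 164980 in all, for which the deposited annotation gives the start of 1 of these genes as the nearest. TNF and IL1B had 1 peak each, CXCL1 had 2, LIF, CCL20 and TNFAIP3 had 3 each, CXCL8 and NFKBIA had 4 each, and IL1A and IL6 had 7 each. An assignment to the nearest start names a position, not a tested target gene, and the files measure open chromatin, not RNA.

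The libraries came from Cal33 and SAS, established head and neck squamous carcinoma lines without HPV, both kept in a laminin-rich matrix. Each line was transfected either with an siRNA that has no target (siControl) or with siITGA7, an siRNA against the alpha 7 integrin chain, which is part of a laminin receptor. Cells went into the matrix at 24 h and nuclei were taken at 48 h after transfection, with 4 independent biological replicates in each of the 4 groups. No other allele or agent is named in the labels, and all 16 cultures were transfected. The files hold no RNA, so the depletion of ITGA7 itself was not checked here.

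NF-kB dimers are held in the cytoplasm by inhibitors such as the product of NFKBIA, and enter the nucleus when receptors for TNF or interleukin 1 start a kinase cascade that destroys the inhibitor. They then bind kappaB motifs at cytokine and chemokine genes, and also at NFKBIA and TNFAIP3, whose products close the loop. Squamous carcinoma cells commonly make interleukin 6, interleukin 8 (CXCL8), CXCL1 and interleukin 1 alpha, and LIF is a cytokine of the interleukin 6 family.

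The start regions were searched for exact matches to a kappaB consensus. The RefSeq promoter table for GRCh38.p14 held 9 of the 10 genes, and LIF had no entry. The kappaB consensus was searched on both strands over 250 bases before and 50 after each start, and 5 of the 9 genes had a match, beside 5.72% of 27305 promoters in the table. The AP-1 motif TGANTCA was in 2 of the 9, IL1A and CXCL8, beside 7.76% of promoters. The 150 bases before the start are given 5′ to 3′ for 3 genes with a kappaB match (capitals), and for CXCL8, with its AP-1 match in capitals. All 4 windows lay inside an ATAC-seq peak over their whole length. A match is a description of letters, and not a shown binding site. Only exact matches were searched, so a gene without a match may still hold a kappaB site.
IL6 (chr7:22727050-22727199, plus strand): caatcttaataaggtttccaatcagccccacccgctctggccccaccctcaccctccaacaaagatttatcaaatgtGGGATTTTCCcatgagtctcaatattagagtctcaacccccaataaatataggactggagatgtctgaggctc
CXCL1 (chr4:73869243-73869392, plus strand): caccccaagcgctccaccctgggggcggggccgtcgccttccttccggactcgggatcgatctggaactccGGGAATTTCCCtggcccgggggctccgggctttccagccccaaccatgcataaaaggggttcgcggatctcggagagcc
NFKBIA (chr14:35404750-35404899, minus strand): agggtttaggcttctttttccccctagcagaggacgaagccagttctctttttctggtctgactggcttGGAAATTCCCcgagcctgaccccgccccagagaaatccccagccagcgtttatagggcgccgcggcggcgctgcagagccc
CXCL8 (chr4:73740419-73740568, plus strand): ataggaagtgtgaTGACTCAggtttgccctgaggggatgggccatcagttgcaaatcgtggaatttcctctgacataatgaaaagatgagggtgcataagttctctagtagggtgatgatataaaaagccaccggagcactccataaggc

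In IL6, CXCL1 and NFKBIA the kappaB match began 73, 79 and 81 bases before the start. The CXCL1 capitals join overlapping matches on both strands. TNFAIP3 held 2 matches, and CCL20 held 1 in a window that no peak overlapped. The window of TNF held no match to either motif and no peak.

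By distance from the RefSeq start, 7 of the 35 peaks had their centre within 1 kb, 16 lay 1 to 10 kb away and 12 lay 10 to 100 kb away. Distances in the text are those of the annotation, whose start matched RefSeq for 8 genes. For CCL20 and TNFAIP3 the annotation measures from other Ensembl starts, and distances from the RefSeq start are given instead. All starts but those of TNF and CCL20 lay inside a peak. The nearest peak to the TNF start was 2.85 kb away, just past the end of the gene, and the nearest to the RefSeq start of CCL20 was 4.07 kb away. The CCL20 peak annotated as a promoter sits at another Ensembl start upstream and gave at most 17 counts in a library. The peak over the TNFAIP3 start (chr6:137866241-137868163) is assigned by the annotation to the neighbouring noncoding gene WAKMAR2, and so stands outside the 35.

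**Figure D1:**
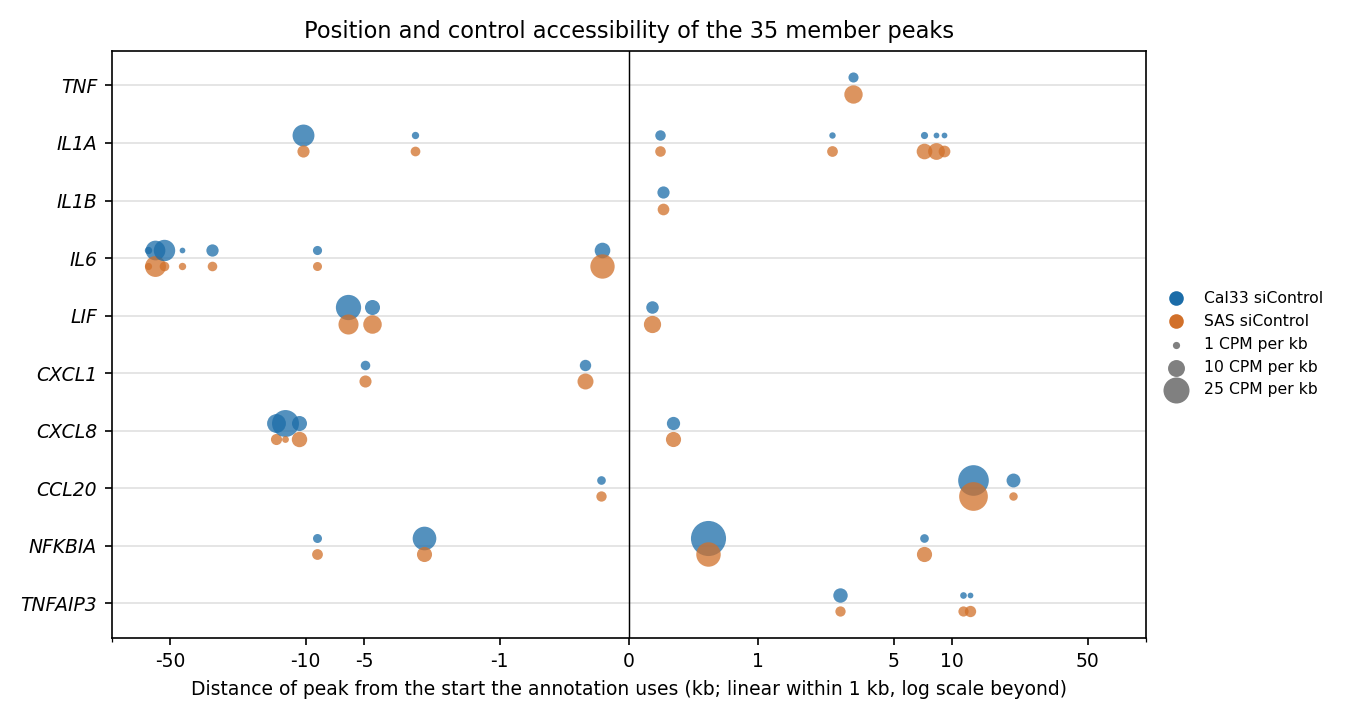
Each point is 1 of the 35 peaks, placed by its distance from the start the annotation uses (kb, linear within 1 kb and log scale beyond), with area growing with mean accessibility in the 4 siControl libraries of a line (CPM per kb of peak). The largest points are the NFKBIA start peak and the CCL20 peak just past that gene's end in both lines (drawn 12.8 kb from the annotation's upstream start), and the CXCL8 peak 12.7 kb upstream is large in Cal33 and small in SAS.

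Accessibility per length differed widely among the peaks (CPM, that is counts scaled to a fixed library total with TMM factors, divided by peak length in kb). In siControl libraries the NFKBIA start peak gave 46.3 ± 10.3 CPM per kb in Cal33 and 22.0 ± 0.756 in SAS (SD, n = 4). The CCL20 peak 0.359 kb past the gene's end, with its centre 4.69 kb from the RefSeq start, gave 35.1 ± 1.13 in Cal33 and 30.7 ± 2.44 in SAS. In Cal33 the IL1A start peak stood at 3.22 ± 0.725 CPM per kb and the IL1B start peak at 4.72 ± 0.369, so these interleukin 1 genes were among the less open starts. The IL6 start peak gave 8.36 ± 0.203 in Cal33 and 21.8 ± 2.28 in SAS.

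Cal33 libraries were deeper after siITGA7 and SAS libraries shallower. Total counts in peaks ran from 3980563 to 8367079 in Cal33 siControl and from 8646532 to 13285086 in Cal33 siITGA7 libraries (two-sided exact permutation p = 0.0286, the smallest that 4 against 4 allows). In SAS they ran from 1766033 to 4870187 and from 758590 to 1867047 (exact permutation p = 0.0571). The share of counts in promoter peaks was lower by 3.59 percentage points after siITGA7 in SAS (exact permutation p = 0.0286) and by 3.33 points in Cal33 (exact permutation p = 0.114). Of 8 squamous markers 7 could be matched to peaks, with a median of 7.07 CPM per kb in Cal33 and 6.63 in SAS siControl libraries at the peak nearest each start, though the nearest TP63 and CDH1 peaks lay 35.1 and 6.14 kb from the annotation's starts. Immune markers had medians of 2.36 and 3.32, but the CD68 start peak stood at 79.9 and 39.1 CPM per kb, and the VWF peak, an endothelial marker, at 53.8 in SAS. The summed immune marker level was 81.1 to 104 in Cal33 siControl and 66.1 to 73.3 in Cal33 siITGA7 libraries, with CD68 at a median of 79.9 and 50.0. CD3E (0.739 and 1.74) and LYZ (0.00 and 0.27) were higher after siITGA7 by their medians. The summed endothelial level was 13.1 to 19.6 against 10.1 to 13.0 in Cal33, also without overlap. By their Cal33 medians ESAM (7.45 and 3.33), VWF (1.14 and 0.4975) and CLDN5 (0.673 and 0.633) were lower after siITGA7. PECAM1 (3.39 and 3.43) and TEK (2.83 and 3.41) were higher. The part of these markers in the results was not tested. In such bulk libraries, more cells with an open site and a site more open in each cell cannot be told apart.

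In Cal33, chromatin beside LIF, TNF and NFKBIA was more open after siITGA7, at peaks away from the starts. Of the 22 member peaks with enough counts to be tested, 4 were higher after siITGA7, none was lower and 18 were not called (edgeR quasi-likelihood F-test, Benjamini-Hochberg adjusted p under 0.05 over 75230 peaks). Over all tested peaks 9.19% were called and 4.52% were called higher, or 5.19% among peaks outside the promoter class, to which all 4 belong. The 4 called peaks were among the 7 tested at 1 to 10 kb from a RefSeq start, with 0 of 7 within 1 kb and 0 of 8 at 10 to 100 kb. This split by distance was noticed after the values were seen and was not tested. Over all tested peaks of the promoter class 1.73% were called higher and 9.93% lower. Only 4 tested member peaks are in that class, since the peaks at the IL1A, CXCL8 and LIF starts have other classes. The share of all peaks called by distance is not given here.

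LIF had 3 peaks, and both upstream ones were called. The peak 4.53 kb upstream of the LIF start (chr22:30250668-30251878, intergenic) gave 10.0, 9.73, 8.87 and 8.50 CPM in Cal33 siControl libraries 1 to 4. In the siITGA7 libraries it gave 15.2, 20.1, 20.0 and 15.6 CPM. Every siITGA7 library stood above every control, without overlap, as in 14.5% of all tested peaks. The log2 fold change was 0.93 ± 0.15 (SE, adjusted p = 0.00013, edgeR), a 1.91-fold rise. With all libraries thinned to the smallest total it was 0.84 (adjusted p = 0.0023).

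The peak 6.02 kb upstream of LIF (chr22:30252119-30253408, intergenic) gave 33.9, 32.2, 23.3 and 31.7 CPM in Cal33 siControl and 32.4, 46.3, 39.8 and 45.7 CPM in siITGA7 libraries. Here siITGA7 library 1 lay among the controls, and control library 3 was the lowest of the 8. The change was 0.45 ± 0.13 (adjusted p = 0.0273, edgeR), but the call was lost with DESeq2 (adjusted p = 0.0588). It was also lost without siControl 3 (0.0531) or 4 (0.0504), or without siITGA7 2 (0.125), 3 (0.0677) or 4 (0.0975). At the LIF start itself (chr22:30245704-30247415, annotated in an exon of another identifier) the groups overlapped, at 7.96, 8.72, 9.97 and 7.67 CPM against 9.49, 8.93, 8.16 and 10.8 CPM, a change of 0.11 ± 0.16 (adjusted p = 0.71, edgeR).

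TNF, the founding ligand of its family, has 1 peak (chr6:31578415-31578869), annotated at its transcription end, 3.08 kb from the start. It held few counts in Cal33, namely 8, 3, 10 and 7 in siControl libraries and 35, 30, 22 and 31 in the deeper siITGA7 libraries. On the CPM scale these are 1.52, 1.01, 1.37 and 1.45 against 3.02, 4.18, 2.72 and 3.80, and the groups did not overlap. The log2 fold change was 1.30 ± 0.30 (adjusted p = 0.00514, edgeR), and 1.504 at equal depth (adjusted p = 0.0123). The peak passed the filter on low counts only through the siITGA7 libraries, the group where it is high. With no filter the change was 1.322 (adjusted p = 0.00265, edgeR). DESeq2 gave the peak no adjusted p.

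NFKBIA encodes IkB alpha, the inhibitor that NF-kB induces to end its own signal. Its peak 2.46 kb upstream (chr14:35407074-35407331, intergenic) gave 6.06, 3.35, 6.14 and 5.60 CPM in Cal33 siControl and 8.97, 8.79, 10.0 and 9.20 CPM in siITGA7 libraries. All 4 siITGA7 libraries were higher than all controls, with control library 2 the lowest. The log2 fold change was 0.74 ± 0.18 (adjusted p = 0.00728, edgeR), but at equal depth it was 0.63 and not called (adjusted p = 0.0993). It was also not called among the 5 Cal33 libraries with 1 sequencing run (0.65, adjusted p = 0.0589).

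At the NFKBIA start (chr14:35403147-35405111), the region with the kappaB letters shown above, the Cal33 values were 106, 104, 62.4 and 91.3 CPM in siControl and 70.3, 81.5, 72.6 and 81.9 CPM in siITGA7 libraries. Control library 3 was the lowest of all 8, and the groups overlapped. The change was -0.24 ± 0.14 (adjusted p = 0.281, edgeR), so the start and the upstream peak of this gene did not share a called change.

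**Figure D2:**
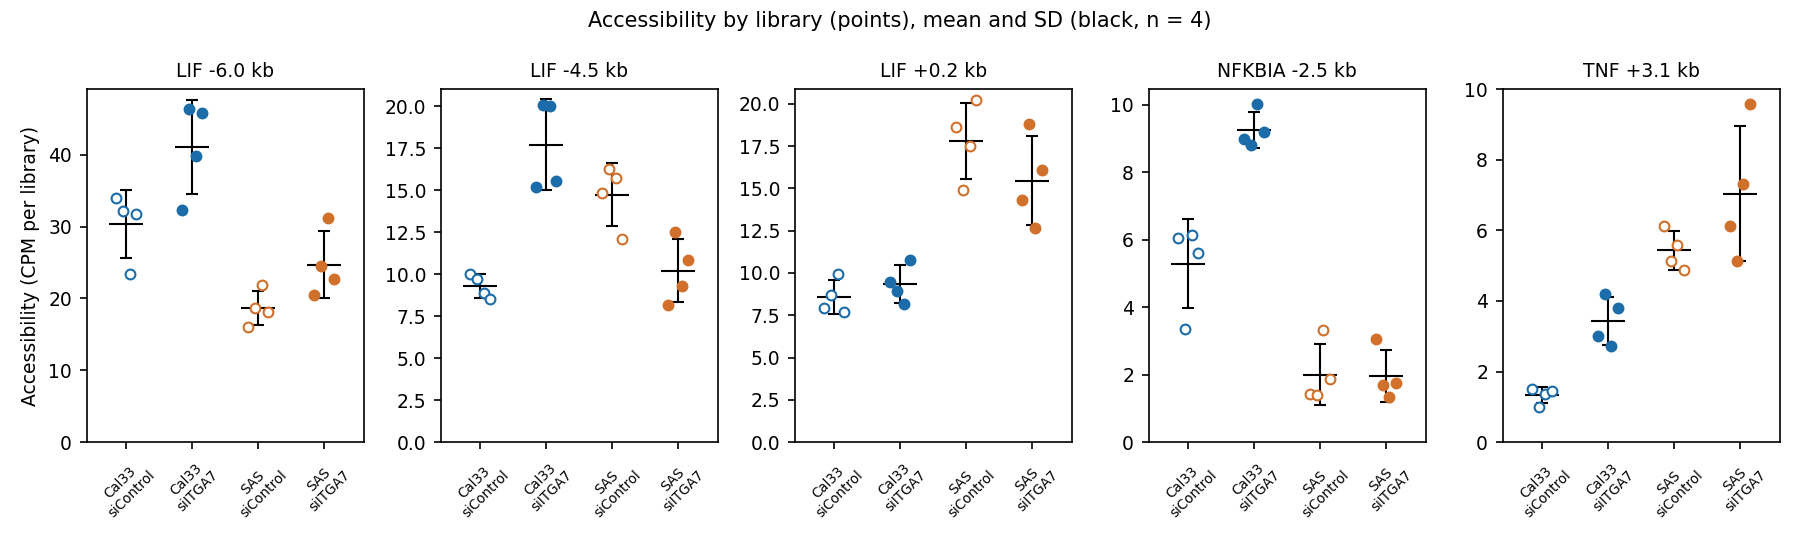
Accessibility (CPM) of 5 peaks in each of the 16 libraries, open points siControl and filled points siITGA7, blue Cal33 and orange SAS, with the group mean and SD (n = 4) in black. At LIF -4.5 kb the Cal33 siITGA7 libraries lie above all Cal33 controls while the SAS siITGA7 libraries lie mostly below the SAS controls.

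The remaining cytokine peaks were not called in Cal33. The IL6 start peak gave 13.3, 13.1, 13.4 and 12.7 CPM in siControl and 14.4, 15.6, 18.7 and 17.2 CPM in siITGA7 libraries. These groups did not overlap, yet the change of 0.32 ± 0.13 missed the threshold (adjusted p = 0.117, edgeR). With offsets fitted by peak class the IL6 start was called higher (0.40, adjusted p = 0.0397). The IL1B start peak, at a gene for a cytokine released after inflammasome cleavage, gave 11.0, 9.73, 10.2 and 11.6 CPM against 9.23, 7.67, 8.04 and 7.11 CPM. Its groups did not overlap either, in the opposite direction, with -0.40 ± 0.15 (adjusted p = 0.0933, edgeR). IL1A, whose product acts as an alarm signal, stood at 0.02 ± 0.12 in its peak 10.3 kb upstream and 0.19 ± 0.20 at the start (adjusted p = 0.943 and 0.587, edgeR). The 95% interval of the IL1A upstream change ran from -0.21 to 0.25, and that of the IL1A start from -0.20 to 0.58.

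None of the 7 tested chemokine peaks was called in Cal33. CXCL1 (11.2, 8.72, 9.01 and 7.47 CPM against 9.32, 9.35, 10.1 and 13.1 CPM) and CXCL8 (5.11, 5.70, 6.69 and 6.43 CPM against 6.47, 8.65, 8.41 and 5.89 CPM) overlapped between groups at their starts. They encode neutrophil attractants, and their start peaks had log2 changes of 0.19 ± 0.16 and 0.27 ± 0.19 (adjusted p = 0.492 and 0.386, edgeR). CXCL1 has close copies in CXCL2 and CXCL3, so reads may be shared among them. Of the upstream CXCL8 peaks, the one 14.3 kb away had 0.42 ± 0.18 (adjusted p = 0.147), and it was called at equal depth (0.80, adjusted p = 0.0257). The strongest CXCL8 peak, 12.7 kb upstream, had -0.17 ± 0.12 (adjusted p = 0.392). CCL20 attracts cells that carry CCR6, and its peak just past the gene's end gave 41.1 to 44.4 CPM in siControl and 41.0 to 47.6 CPM in siITGA7 libraries. That CCL20 change was 0.05 ± 0.11, with a 95% interval from -0.17 to 0.27 (adjusted p = 0.82, edgeR). TNFAIP3 encodes the ubiquitin-editing enzyme A20, and its intron peak, centred 6.59 kb from the RefSeq start, gave 8.52, 9.39, 8.19 and 7.26 CPM in siControl and 10.5, 9.90, 10.9 and 9.93 CPM in siITGA7 libraries. Those TNFAIP3 groups did not overlap, but the test was not passed (0.32 ± 0.15, adjusted p = 0.179, edgeR). The peak over the TNFAIP3 start that carries the WAKMAR2 name had 0.17 ± 0.12 (adjusted p = 0.39).

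In SAS 1 member peak was called after siITGA7, the peak 6.02 kb upstream of LIF. The other 13 tested peaks were not called, a share of 7.14% against 7.03% called (4.04% higher) over all 43600 tested peaks, so the members' share was near the background. The SAS values were 16.0, 18.6, 21.9 and 18.1 CPM in siControl and 20.4, 24.5, 31.2 and 22.6 CPM in siITGA7 libraries. The groups overlapped, siITGA7 library 1 lying under control library 3. The log2 fold change was 0.50 ± 0.15 (adjusted p = 0.0284, edgeR), and the call was lost with DESeq2 (adjusted p = 0.153), at equal depth (0.0665), with class offsets (0.093), with no filter (0.338), in the fit of 16 libraries (0.224) and without siControl 1 (0.104) or 4 (0.0753), or siITGA7 2 (0.0769) or 3 (0.226). Peaks higher in both lines were 0.294% of the 38393 tested in both, and this LIF peak was the only member among them.

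The other SAS peaks did not pass. The NFKBIA start gave 41.5, 42.4, 44.6 and 44.2 CPM in SAS siControl and 54.1, 56.4, 51.8 and 40.5 CPM in siITGA7 libraries. The first 3 of those siITGA7 libraries lay above all controls and library 4 below them, with 0.30 ± 0.11 (adjusted p = 0.0857, edgeR). This NFKBIA change was called with class offsets (0.45, adjusted p = 0.00524), where it was the 1 called member in place of the LIF peak, and among peaks with a mean of at least 50 counts (0.39, adjusted p = 0.0122). The IL6 start gave 37.7, 33.1, 36.0 and 29.5 CPM against 21.4, 34.2, 21.3 and 27.0 CPM, with -0.26 ± 0.14 (adjusted p = 0.276, edgeR), and was called lower with no filter (-0.45, adjusted p = 0.0359). TNF had 6.12, 5.12, 5.59 and 4.89 CPM against 6.13, 5.12, 7.31 and 9.58 CPM, from 6 to 32 counts a library (0.52 ± 0.27, adjusted p = 0.259, edgeR). The IL1A peak 10.3 kb upstream, though not called, did not overlap between groups (0.44 ± 0.18, adjusted p = 0.141, edgeR), as in 13.6% of all peaks.

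**Figure D3:**
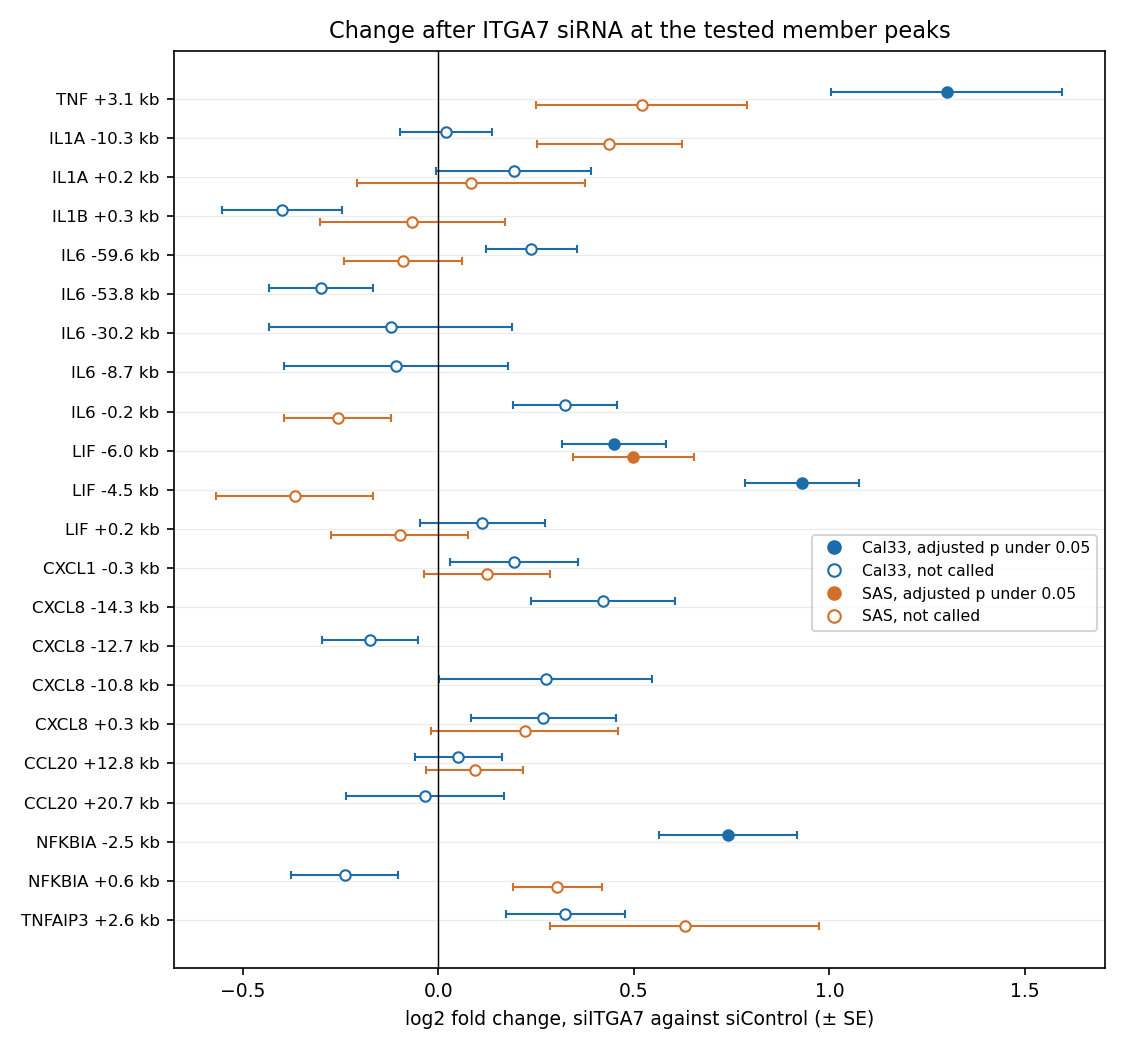
Log2 fold change of siITGA7 against siControl (± SE, edgeR) at the member peaks tested in Cal33 (blue) or SAS (orange), filled where the adjusted p is under 0.05, with peaks named by the annotation's distances. The 4 filled blue points and the 1 filled orange point lie right of 0, and the LIF -4.5 kb peak has its estimates on opposite sides of 0 in the lines.

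The response of the LIF peak 4.53 kb upstream differed between the lines. In SAS it gave 14.8, 16.3, 15.7 and 12.1 CPM in siControl and 8.17, 12.5, 9.31 and 10.9 CPM in siITGA7 libraries, 8 to 25 counts each in the latter, and these groups overlapped (-0.37 ± 0.20, adjusted p = 0.292, edgeR). The Cal33 change minus the SAS change was 1.40 ± 0.25 on the log2 scale (interaction in a fit of all 16 libraries, adjusted p = 0.000533, edgeR). This was the only call among 30 member peaks tested for this difference, beside 0.761% of all 94918 peaks. There were 4 calls without Cal33 siControl 3 and 2 without SAS siITGA7 2, this LIF peak among them each time. For the neighbouring LIF peak 6.02 kb upstream the difference was 0.05 ± 0.21, with a 95% interval from -0.37 to 0.46. The IL6 start (0.69 ± 0.20, adjusted p = 0.08) and the IL6 peak 53.8 kb upstream (-1.29 ± 0.38, adjusted p = 0.0734) came closest among the rest, and the IL6 start passed with no filter (0.815, adjusted p = 0.0256). The NFKBIA start passed with class offsets (-0.47, adjusted p = 0.0449) and at a mean of 50 counts (-0.53, adjusted p = 0.0452). TNF (0.88 ± 0.41, 95% interval 0.075 to 1.68, adjusted p = 0.332) and the upstream NFKBIA peak (0.98 ± 0.50, 95% interval -0.0043 to 1.96, adjusted p = 0.393) did not pass.

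Between the control libraries the lines differed at most member peaks, as at most peaks. DNA copy number of the lines was not corrected for, and its part in these differences was not tested. Of 22 tested, 9 were higher and 8 lower in Cal33 than in SAS (edgeR), 77.3% against 78.6% called over all 73404 peaks (37.5% higher and 41.1% lower), so the count says nothing particular of these genes. The median of all peaks was -0.08 with TMM factors and -0.58 with total counts. With total counts 7 members were higher and 12 lower, the LIF peak 6.02 kb upstream moved from 0.49 ± 0.15 to -0.02, and the other 16 called peaks kept their direction. These values share the control libraries with the comparisons above. The CXCL8 peak 12.7 kb upstream (chr4:73727505-73728197) gave 20.6, 18.1, 18.8 and 16.8 CPM in Cal33 and 0.471, 0.00, 0.524 and 1.16 CPM in SAS, from 0 to 5 counts in SAS siControl libraries. Its difference was 4.70 ± 0.30 (adjusted p = 4.13e-22, edgeR), the largest of the 22. The peak 14.3 kb upstream was also higher in Cal33, at 5.11, 4.02, 7.92 and 6.02 CPM against 1.18, 1.40, 1.75 and 2.56 CPM (1.58 ± 0.30). The CXCL8 start was lower in Cal33 (-0.62 ± 0.21, adjusted p = 0.00587, edgeR), where SAS libraries gave 9.42, 7.45, 7.34 and 8.38 CPM, and this call was lost with no filter (-0.22, adjusted p = 0.384). The CCL20 peak centred 12.6 kb from the RefSeq start was higher in Cal33 (1.75 ± 0.33), at 5.68, 6.04, 5.32 and 3.94 CPM against 0.942, 2.33, 1.57 and 0.931 CPM.

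IL6, like CXCL8, had an upstream peak higher and the start lower in Cal33, but this did not hold for every upstream peak. Not called between the lines were the CXCL8 peak 10.8 kb upstream (-0.23 ± 0.32, adjusted p = 0.518, edgeR) and the IL6 peak 8.71 kb upstream (-0.10 ± 0.29, adjusted p = 0.766, edgeR). The peak 53.8 kb upstream (chr7:22672886-22673945, in an intron of another gene) gave 18.6, 20.8, 15.8 and 15.1 CPM in Cal33 siControl and 2.36, 4.19, 1.75 and 2.56 CPM in SAS siControl libraries (2.62 ± 0.23, adjusted p = 3.45e-16, edgeR). The IL6 start, with the control values given above, was lower in every Cal33 library than in any SAS library (-1.57 ± 0.14, adjusted p = 3.18e-15, edgeR). The IL6 peak 59.6 kb upstream gave 25.6, 22.1, 27.0 and 21.2 CPM in Cal33 and 28.5, 29.8, 23.6 and 26.5 CPM in SAS siControl libraries, overlapping (-0.33 ± 0.14, adjusted p = 0.0277, edgeR), and this call was lost with DESeq2 (adjusted p = 0.0597) and stood at -1.01 with class offsets. CXCL1 was also lower at its start in Cal33 (-1.33 ± 0.17), where SAS siControl libraries gave 16.3, 17.7, 20.3 and 26.1 CPM. The LIF start, at 18.6, 14.9, 17.5 and 20.2 CPM in SAS, was lower in Cal33 as well (-1.24 ± 0.17). The IL1B start gave 10.1, 10.2, 7.34 and 10.5 CPM in SAS and did not pass (0.01 ± 0.18, 95% interval -0.35 to 0.36, adjusted p = 0.973, edgeR), but was called lower with total counts (-0.495, adjusted p = 0.0193) and higher with no filter (0.41, adjusted p = 0.0493).

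Between control libraries, IL1A was higher in Cal33 at 1 tested upstream peak and lower at 1 tested peak inside the gene. Its peak 10.3 kb upstream was higher in Cal33 (1.66 ± 0.15), at 46.0, 45.6, 44.8 and 49.2 CPM against 13.4, 8.38, 13.6 and 14.4 CPM in SAS siControl libraries. The IL1A peak 2.72 kb upstream went the other way, at a mean of 0.777 CPM in Cal33 and 1.94 CPM in SAS siControl libraries. Too low to be tested there, it was called lower in Cal33 among siITGA7 libraries (-1.73 ± 0.44, adjusted p = 0.000257, edgeR). The intron peak 7.13 kb inside was lower in Cal33 (-3.26 ± 0.40, adjusted p = 6.45e-11, edgeR), at 0.379, 0.671, 0.410 and 0.207 CPM against 2.83, 4.19, 3.50 and 3.96 CPM, from 1 to 20 counts. With class offsets this IL1A intron call was lost (-0.69, adjusted p = 0.222), while the peak 10.3 kb upstream stayed called at 0.99. The IL1A intron peaks 2.39, 8.23 and 9.13 kb inside were too low to be tested among controls. Their siControl means were also lower in Cal33, at 0.362 against 2.16, 0.0838 against 2.89 and 0.133 against 2.06 CPM. The peak 8.23 kb inside was called lower in Cal33 among siITGA7 libraries (-4.44 ± 0.58, adjusted p = 2.3e-11, edgeR), from 0 to 7 counts. The IL1A start overlapped between the lines, at 6.44, 3.69, 4.92 and 5.60 CPM in Cal33 and 4.95, 3.73, 6.29 and 6.28 CPM in SAS (-0.26 ± 0.24, adjusted p = 0.319, edgeR), and it was called lower in Cal33 with total counts (-0.75, adjusted p = 0.00699). The 3 tested inhibitor peaks, of 7, were higher in Cal33 with TMM factors. These were the NFKBIA start (0.88 ± 0.14), its peak 2.46 kb upstream (1.15 ± 0.30) and the TNFAIP3 intron peak (1.05 ± 0.24). With offsets fitted by peak class the NFKBIA start turned to -0.21. That upstream NFKBIA peak lost its call with total counts (0.67, adjusted p = 0.0546, edgeR). It gave 1.41, 1.40, 3.32 and 1.86 CPM and the TNFAIP3 intron peak 4.00, 4.66, 2.97 and 3.02 CPM in SAS siControl libraries. The inhibitor peaks with too few counts for this test had lower siControl means in Cal33 than in SAS. For NFKBIA these were 1.08 against 1.78 CPM 8.73 kb upstream and 0.348 against 1.44 CPM 7.15 kb past the start. For TNFAIP3, 15.3 and 16.3 kb from the RefSeq start, they were 0.421 against 1.80 and 0.0992 against 1.41 CPM. TNF was lower in Cal33 (-2.16 ± 0.30, adjusted p = 3.73e-09, edgeR), and still called at -1.23 with class offsets. The LIF peak 4.53 kb upstream was lower in Cal33 among controls (-0.85 ± 0.17) but higher among siITGA7 libraries (0.53 ± 0.19, adjusted p = 0.00919, edgeR).

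**Figure D4:**
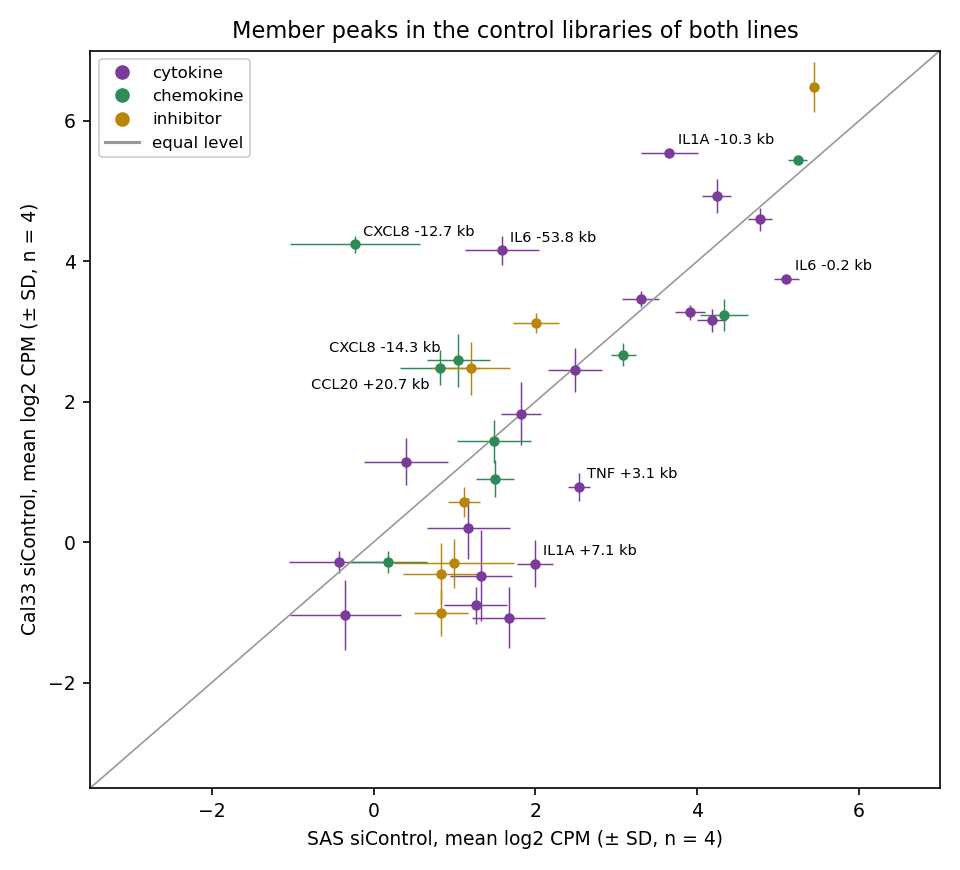
Mean log2 CPM (± SD, n = 4) of the 35 member peaks in SAS (x axis) and Cal33 (y axis) siControl libraries, coloured by role, with the grey line marking equal level and names on called peaks that differ by more than 1.5 on the log2 scale. CXCL8 -12.7 kb lies farthest above the line, and TNF +3.1 kb and IL1A +7.1 kb lie below it.

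When all peaks assigned to a gene were summed, LIF (0.53 ± 0.10, adjusted p = 0.00241) and TNF (1.32 ± 0.28, adjusted p = 0.00535) were higher after siITGA7 in Cal33 and the other 8 genes were not called (edgeR over 36577 genes, 9.69% called). The TNF sum is its single peak, and so has the limit of the filter given above. NFKBIA stood at -0.12 ± 0.11 (adjusted p = 0.542), since its start peak holds most of its counts. In SAS none of the 10 was called (edgeR over 30915 genes, 9.53% called), with TNFAIP3 nearest at 0.69 ± 0.24 (adjusted p = 0.0502) and IL1A next at 0.33 ± 0.12 (adjusted p = 0.0778). The TNFAIP3 sum holds 3 peaks, each with 2 to 17 counts in a SAS library. It leaves out the peak over the TNFAIP3 start that carries the WAKMAR2 name, which had -0.33 ± 0.13 in SAS (adjusted p = 0.0988, edgeR). Without SAS siControl 1 or 2, or siITGA7 4, 1 gene was called.

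Other genes of the pathway were taken from lists of ligands, receptors, signalling proteins, NF-kB subunits, inhibitors and targets, 101 genes of which 84 had an identifier and 344 peaks. In Cal33, 16 of 203 tested peaks were higher and 7 lower, 11.3% against the 9.19% of all peaks, with a median log2 change of -0.03 against -0.01 for all peaks. The 23 calls became 40 without siControl 3, 13 or 14 without siControl 1 or 2, and 10 without siITGA7 2 or 3. The share of all peaks moved the same way, to 14.3% without siControl 3, 4.8% and 6.18% without siControl 1 or 2, and 4.12% and 4.02% without siITGA7 2 or 3. Ligand genes had 8 higher and 1 lower of 55, among them IL24 (0.67 ± 0.13), CSF2, a myeloid growth factor (0.53 ± 0.13), and CCL28 (0.60 ± 0.15). Receptor genes had 2 higher of 35, in IL1R1, the interleukin 1 receptor (0.68 ± 0.16), and TNFRSF1A, the main TNF receptor (0.63 ± 0.18). Signalling genes had 2 higher and 2 lower of 47, with the kinase genes IKBKB (0.78 ± 0.14) and MAP3K7 (1.34 ± 0.31, in a peak 128 kb upstream of the RefSeq start) higher and RNF31, of the linear ubiquitin complex, lower (-0.55 ± 0.14). The MAP3K7 peak was low, at 0.00 to 2.59 CPM in Cal33 siControl and 4.08 to 4.49 CPM in siITGA7 libraries. The 3 subunit genes with an identifier had 0 called of 8 peaks. Inhibitor genes had 2 lower of 29, at NFKBIZ (-0.49 ± 0.14) and CYLD, a deubiquitinase (-0.41 ± 0.13). Target genes had 4 higher and 2 lower of 29, with GADD45B (0.99 ± 0.16) and PLAU, the urokinase (0.68 ± 0.14), higher and LCN2 lower (-0.87 ± 0.12).

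In SAS 7 of 135 tested pathway peaks were higher and 4 lower, 8.15% against 7.03% of all peaks, and the 11 calls became 5 without siControl 4 and 6 without siITGA7 1 or 2. Over all peaks those shares were 5.53%, 5.60% and 4.56%. The peak of IL1R2, the decoy receptor for interleukin 1, had the smallest p and stood at 8.01 to 19.1 CPM in siControl and 23.9 to 31.6 CPM in siITGA7 libraries (1.505 ± 0.18, adjusted p = 9.81e-11, edgeR). The single called ligand peak was 19.4 kb upstream of CCL2 (0.84 ± 0.27, adjusted p = 0.0344). IKBKG, the scaffold of the kinase complex, was lower at its start (-0.67 ± 0.16, adjusted p = 0.00274), as was TAB2 (-0.51 ± 0.15), while a TRAF2 peak 15.4 kb inside the gene, at another annotated start, was higher (0.56 ± 0.16). TNIP2 (0.84 ± 0.18) and BCL3 (0.40 ± 0.13) were higher and CYLD lower again (-0.38 ± 0.12, adjusted p = 0.0338, edgeR) at the peak also lower in Cal33. The same PLAU peak as in Cal33 was also higher in SAS (0.50 ± 0.17, adjusted p = 0.0496, edgeR), and the peak over the GADD45B start was higher (0.45 ± 0.10).

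Across the 16 libraries, after the mean of each line was taken out, the summed accessibility of TNF and LIF went together most among the member pairs (Pearson r = 0.718) and that of IL1A and IL6 least (r = -0.693). Among 10044 genes, the one most like LIF was LOC124905938 (r = 0.91), the one most like TNF was PLEK2 (r = 0.90), and the one most like IL6 was RAET1L (r = 0.926). For NFKBIA it was KLHL29 (r = 0.874), for TNFAIP3 KHNYN (r = 0.909) and for IL1B GPR84 (r = 0.862). CXCL8 was most like FGF13 (r = 0.846), CCL20 most like BPI (r = 0.783) and CXCL1 most like TNFRSF10A (r = 0.739). These values describe 16 libraries whose depth differed with treatment within each line, with the best of many genes picked each time.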

How the data were processed

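Raw counts over 1 common peak set were deposited by the authors, per the file headers, and all tests used these counts. The authors also deposited a normalized signal (per its values, counts over 1 scaling factor for each library), which was not used. Per the submitters' processing notes, bcl2fastq 2.20.0 and build hg38 or GRCh38 were used. For the aligner, peak caller, counter, duplicate handling and transposase shift, nothing is given in the sources used here. Whether each count stands for 1 independent molecule is thus unknown. Reads were paired, 100 bp each. The labels' protocols give an siRNA pool and a matrix of 1.0 mg/mL, in text that speaks of RNA work.

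The annotation gives Ensembl identifiers, of which 34078 of 45291, and all 10 genes here, could be paired with RefSeq genes (GRCh38.p14) through their positions (starts within 1000 bp, or at least 0.5 of the peaks inside the gene). LIF was matched by its start alone. Printed coordinates come from that annotation and count from 1.

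Each line was fitted separately in edgeR 4.0.16 under R 4.3.3 by a quasi-likelihood F-test (robust, TMM factors, filterByExpr), Benjamini-Hochberg over all tested peaks, threshold 0.05. Of the 35 peaks 22 passed the filter on low counts in Cal33, 14 in SAS, 30 in the fit of 16 libraries and 22 among controls. CPM used totals times TMM factors over 16 libraries, with a prior count of 2 on the log2 scale. SE is the log2 fold change divided by the root of F, and 95% intervals take it as normal. Library shares and totals were compared by exact permutation over 70 arrangements. The scripts were tested on simulated data.

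The labels give replicate numbers as batches, shared by the groups, but deviations of same-numbered libraries correlated at only -0.135 to 0.0061. The fit with this block is therefore an alternative. Others were DESeq2 1.42.0, limma-voom (limma 3.58.1), other scalings and filters, equal depth by thinning, and leaving out each library. The genes and lists were chosen with earlier results of these data known. Named are all 10 genes, every called peak and the peak nearest each start, up to 3 called genes per list and line with the smallest p, and the most similar protein-coding gene, which for IL1A is not reported here.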

Additional observations from a re-analysis of the deposited data

Results flagged for a closer look

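The LIF peak 4.53 kb upstream of the start stood out because its change after siITGA7 differed between the lines by a direct test, at 1.4 on the log2 scale (Cal33 change minus SAS change). Among 52 groups of 4 libraries, taken at the peaks called after siITGA7 and the peak nearest each start, 2 held a library far from the other 3, and chance marks about 1 group in 20. The IL1B start peak had a low value of 7.343 CPM in SAS siControl library 3. The CCL20 peak annotated as a promoter had a high value of 2.048 CPM in Cal33 siControl library 3, from 15 counts.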

How the results depend on the processing

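In Cal33 2 member peaks instead of 4 were called with DESeq2, and 3 to 5 when 1 library was left out. The 5 calls without siControl 3 were 4 higher and 1 lower, and did not include LIF -6.0 kb. In SAS the count of 1 became 0 with DESeq2, in the fit of all 16 libraries, at equal depth and with the promoter share as covariate (added after seeing the data), 2 with a mean of at least 50 counts, and 0 to 2 when 1 library was left out. The 1 SAS call was the IL6 start, lower, without a filter, and the NFKBIA start, higher, with class offsets. In Cal33 class offsets added the IL6 start. The line difference gave 2 calls with class offsets, 2 with no filter, 3 at a mean of 50 counts and 1 to 4 with 1 library left out, and LIF -4.5 kb kept its call in both Cal33 and the line difference in every alternative run. Between control libraries 7 peaks were called at a mean of 50 counts, where few are tested, and 16 to 20 with 1 library left out. Gene sums gave 1 call in Cal33 with DESeq2 (2 to 3 with 1 library left out). In SAS they gave 1 with DESeq2 size factors, 1 within 10 kb of the start and 0 to 1 with 1 library left out. Pathway peaks called were 37 in Cal33 with class offsets (10 to 40 with 1 library left out), and in SAS 4 with DESeq2, 6 with class offsets and 5 to 13 with 1 library left out. The promoter share difference ran from -4.653 to -2.415 in Cal33 and from -3.785 to -3.451 in SAS, where 3 against 4 libraries cannot give a p below 0.0571. Reversed between the lines were IL6 -59.6 kb (0.074 with no filter, 0.092 among siITGA7 libraries), LIF -4.5 kb (0.529 among siITGA7 libraries), LIF -6.0 kb (-0.021 with total counts, -0.173 with class offsets, -0.248 at a mean of 50 counts) and NFKBIA +0.6 kb (-0.207 with class offsets). The values among siITGA7 libraries compare other libraries than the controls, and are not another processing of the control comparison. The CCL20 peak past the gene's end, not called between the lines, was called lower in Cal33 with total counts (-0.479), class offsets (-0.796) and at a mean of 50 counts (-0.706), and higher with no filter (0.425). The causes were not tested. With the replicate block 4 peaks in Cal33, 1 in SAS and 1 in the line difference were called, and no member call changed. Of the single-peak values under alternatives, 689 kept their side of the threshold, 16 passed it newly, 24 lost it and 7 reversed. These counts include the values among siITGA7 libraries. TNF in Cal33 was not tested at a mean of 50 counts and had no adjusted p from DESeq2. Depth limits SAS most: its shallowest library held 758590 counts, and 14 of 35 peaks there had enough counts for a test.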

Other observations

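The annotation places 5 peaks in or at the end of 1 of the 10 genes but assigns them to another start, and 3 of them overlap the gene by RefSeq positions. The 3 of the 5 with enough counts for a test in Cal33, and the 2 in SAS, were not called after siITGA7 (edgeR). Inside IL6, a peak named for IL6-AS1 (chr7:22731127-22731617) gave 5.30 to 9.42 CPM in Cal33 siControl and 6.00 to 9.15 CPM in siITGA7 libraries (0.08 ± 0.19, edgeR). The peak over the TNFAIP3 start gave 36.8 to 41.6 CPM in SAS siControl and 26.6 to 31.3 CPM in SAS siITGA7 libraries, without overlap, and was not called (-0.33 ± 0.13, adjusted p = 0.0988, edgeR). In Cal33 controls it stood at 50.7 to 63.8 CPM, higher than in SAS (0.36 ± 0.13, adjusted p = 0.0129, edgeR). Peaks with an unadjusted p under 0.05 numbered 10 of 22 in Cal33 and 3 of 14 in SAS, beside 24.7% and 20.6% of all tested peaks (edgeR).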
